A study of Mus musculus with 8 samples.

Results

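The genes described here are Trp53, which encodes the transcription factor p53, and 9 genes that p53 is known to switch on: Mdm2, Ccng1, Plk2, Trp53inp1 and Zmat3, which act in feedback and growth control, and Bbc3, Pmaip1, Bax and Aen, which act in cell death. They were chosen by name from what is known of the pathway, at a time when earlier results of these data were known, and are 10 of the 55421 genes counted. All 10 passed the filter on low counts, as did 15137 genes in all. The QuantSeq forward kit was used to read the 3′ end of each polyadenylated transcript in E14 mouse embryonic stem cells of the 129/Ola background, derived from the blastocyst. There were 8 libraries in 4 groups of 2 biological duplicates each, and all cells grew on gelatin in medium with serum and LIF, the cytokine that maintains self-renewal. WT cells were wild type and untreated, and KO cells lacked the microRNA cluster miR-290-295 and were also untreated. The siNeg and siTfap4 groups were both KO cells, so no WT cells were transfected: they had received, with a lipid reagent, a siPOOL (many small interfering RNAs in 1 mix) at 5 nM for 36 hours, either a negative control or one against Tfap4, a transcription factor of the basic helix-loop-helix class. WT and KO libraries were made and sequenced together, and the 4 siPOOL libraries formed a separate set. The labels do not say whether the KO cells were 1 clone or several, and the duplicates of WT and of KO carry different name suffixes whose meaning is not given. WT replicate 1 and KO replicate 2 share a suffix, and no fit here follows it.

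In most cells p53 is kept scarce by MDM2, a ubiquitin ligase that marks it for degradation and that p53 itself induces. When DNA damage or other stress stabilises p53, it binds paired decamer sequences near its target genes and raises their transcription, which can stop the cell cycle, change metabolism or start apoptosis through BCL2-family proteins at mitochondria. Embryonic stem cells hold much p53 RNA and protein and can respond to p53 by differentiating or dying, while the microRNAs of the cluster are known for promoting their fast cell cycle and their survival.

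The microRNAs missing from KO cells are shown first. In the RefSeq set used here, 5 of them share a seed (bases 2 to 8, in capitals) that begins with the same 6 letters. That set holds miR-292a-5p but has no entry for miR-292a-3p, so the 5 may not be all that share it. A seed is the stretch by which a microRNA pairs with the 3′ untranslated region (UTR) of a target RNA. The sequences are RefSeq's, and all 5 lie on the plus strand of GRCm38.p6, from chr7:3218674-3218697 for the first to chr7:3220815-3220837 for the last.
miR-290a-3p: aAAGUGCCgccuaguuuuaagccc
miR-291a-3p: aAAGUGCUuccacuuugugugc
miR-291b-3p: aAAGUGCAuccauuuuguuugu
miR-294-3p: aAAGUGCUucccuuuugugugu
miR-295-3p: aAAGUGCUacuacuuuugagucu

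The longest annotated 3′ UTR of each of the 10 genes (GENCODE, GRCm38) was searched for the word AGCACTT, which pairs with the seeds of miR-291a-3p, miR-294-3p and miR-295-3p, for GGCACTT (miR-290a-3p) and TGCACTT (miR-291b-3p), and for the shared 6 letters followed by A, GCACTTA, with overlapping words counted as 1 site. In this sense strand 3 of the 10 genes held a match: Ccng1 had 2, and Trp53inp1 and Zmat3 had 1 each. A word of this kind occurred in 32.5% of the 12780 tested genes with an annotated 3′ UTR. Over those genes the median log2 fold change between KO and WT was 0.08 with a word and -0.04 without one. The 4 sites are shown with the matching letters in capitals. They lie at chr11:40750545-40750569 and chr11:40749394-40749418 (minus strand), chr4:11174216-11174240 (plus strand) and chr3:32339097-32339121 (minus strand).
Ccng1, from UTR base 309: ttactgaaatAGCACTTctttaaat
Ccng1, from UTR base 1460: atttcatgaaTGCACTTttaaggta
Trp53inp1, from UTR base 4267: tgaacagcacAGCACTTtgccaaaa
Zmat3, from UTR base 2373: gggtttccgaAGCACTTggaagttc

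The levels of these 3 genes were not higher in KO than in WT cells: Trp53inp1 fell, and the fold changes of Ccng1 and Zmat3 were below 0 without passing the test, as given below. A match is a description of the letters and no evidence of binding.

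The promoters were looked at because p53 acts through DNA. RefSeq windows of 300 bases (250 before to 50 after the start, GRCm38.p6) were found for 7 of the 10 genes, and Trp53inp1, Zmat3 and Pmaip1 had no entry. The p53 decamer consensus, 1 unit of the paired site, was searched with no mismatch, and its palindromic form covers both strands. It occurred in 8.36% of all 32851 promoter windows, a share of windows and not of genes, some of which have several windows. Windows of 5 of the 7 genes held it, Trp53 itself, Mdm2, Ccng1, Bax and Aen, while none of the windows of Bbc3 and Plk2 did. Each window of those 5 genes held 1 decamer, so none held an exact pair. An exact pair of decamers close together occurred in 0.0731% of all windows. The E-box CAGCTG, a sequence that TFAP4 is known to bind, occurred in 16.3% of all windows and among these genes in Mdm2 alone, without overlap with the decamer. The stretches around the decamers (capitals) lie at chr11:69580264-69580313 (plus), chr10:117710915-117710964 (minus), chr11:40755442-40755491 (minus), chr7:45467070-45467119 (minus) and chr7:78895917-78895966 (plus).
Trp53: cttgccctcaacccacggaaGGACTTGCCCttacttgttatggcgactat
Mdm2: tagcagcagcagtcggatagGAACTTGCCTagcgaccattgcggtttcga
Ccng1: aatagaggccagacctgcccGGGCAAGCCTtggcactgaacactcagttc
Bax: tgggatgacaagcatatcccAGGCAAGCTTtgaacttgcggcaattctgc
Aen: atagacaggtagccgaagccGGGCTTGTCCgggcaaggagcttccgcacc

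Library totals ran from 8326675 to 12726123 counts, with 19271 to 21183 genes detected, and mitochondrial genes took 4.93% to 6.84% of the counts. Tfap4, the knockdown target, checked the labels: it had 19.7 and 16.4 CPM in the WT libraries, 49.0 and 42.1 in those of KO, 34.4 and 37.4 under siNeg, and 12.4 and 15.8 under siTfap4. It was lower in siTfap4 than in siNeg by a log2 fold change of -1.35 (adjusted p 0.00365), and by -1.55 to -1.19 with 1 library left out, where the call was lost without siTfap4 replicate 1 (adjusted p 0.0575). The 8 embryonic stem cell markers summed to 3042 to 3148 CPM in WT, 3528 to 3574 in KO, 3358 to 3433 in siNeg and 2318 to 2581 in siTfap4. None of the 8 was called in KO against WT. In siTfap4 against siNeg 1 rose and 2 fell, beside 4.36% and 11.1% of all tested genes. Mean CPM fell from 440 to 6.57 for Dppa5a and from 364 to 129 for Nanog, and rose from 26.4 to 53.7 for Pou5f1. The end of Dppa5a is 63.5% shared with other genes, so its counts are uncertain. The call of Pou5f1 was lost with correction for the GC share of transcript ends, and without siNeg replicate 1 or siTfap4 replicate 1. That of Nanog was lost without siNeg replicate 1. With 1 library left out the log2 fold change ranged from -2.20 to -1.04 for Nanog and from 0.86 to 1.14 for Pou5f1. Markers of primitive endoderm, a lineage that can arise in such cultures, summed to 299 to 318 CPM in WT and 74.7 to 93.4 in KO. Of these 11 markers 8 fell in KO, beside 3.96% of all tested genes. The 11 summed to 86.7 to 112 CPM in siNeg and 90.0 to 129 in siTfap4. Their part in the differences between KO and WT was not tested. Fibroblast markers summed to 28.5 to 49.9 CPM in WT and 9.94 to 20.04 in KO, mostly from Thy1. Of the fibroblast matrix genes, Col3a1, Postn and Dcn were at 0 counts in both groups. Col1a1 had 21 and 17 counts in WT and 5 and 4 in KO, and Col1a2 had 4 and 0 in WT and 0 in KO. Thy1 and Col1a1, the 2 tested markers of this list, both fell in KO, though neither call held in every alternative fit. Trophectoderm markers summed to between 6.01 and 15.4 CPM in all 8 libraries. In bulk RNA, fewer cells of a type and less RNA per cell cannot be told apart.

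The WT duplicates differed from each other in the p53 targets, which bears on every comparison with WT. WT replicate 1 was above WT replicate 2 in 8 of the 9 targets, with a median log2 difference of 0.62, while over all tested genes it was above in 49.0%, with a median of -0.01. The log2 difference was largest for Plk2, at 1.37, followed by Mdm2 at 0.90 and Trp53inp1 at 0.87. Trp53 itself did not show it, at 0.00, and Pmaip1 ran the other way, at -0.70. Among 27 other tested p53 targets the first WT library was above the second in 21, with a median of 0.35. In the other groups replicate 1 was above replicate 2 in 4 of the 9 targets in KO, 3 in siNeg and 4 in siTfap4. For KO against WT each gene is therefore given also with single libraries left out.

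**Figure D1:**
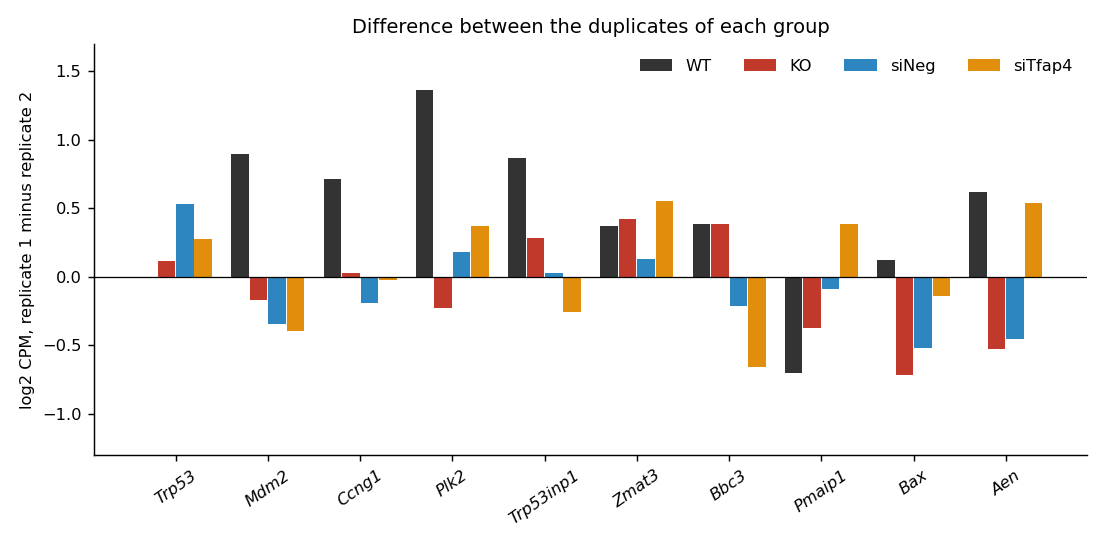
Difference between replicate 1 and replicate 2 within each group, as log2 CPM (vertical axis), for the 10 genes (horizontal axis), with 1 bar per group. The WT bars lie above 0 for 8 of the 9 targets, up to 1.37 for Plk2, and below 0 for Pmaip1, while the bars of the other groups point both ways.

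Trp53 RNA did not differ between WT and KO cells by more than the test could detect. The gene (ENSMUSG00000059552, chr11:69580359-69591873, plus strand of GRCm38) had 42.3 and 42.3 CPM (counts scaled to library size with TMM factors) in WT, and 52.1 and 48.0 CPM in KO. Both KO libraries were above both WT libraries, by a small margin. The log2 fold change was 0.25 ± 0.25 (SE), with an adjusted p of 0.629, and ranged from 0.19 to 0.31 with 1 library left out.

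Of the 9 targets, 3 fell in KO relative to WT cells and none rose: Pmaip1 by 3.76-fold, Plk2 by 3.05-fold and Trp53inp1 by 2.30-fold. All 9 had fold changes below 0, with a median log2 fold change of -0.79, beside 50.5% of all tested genes below 0 and a median of -0.01. Without WT replicate 1 the median of the 9 was -0.50, and with each of the other libraries left out it lay between -1.06 and -0.61, with all 9 still below 0. Calls at an adjusted p under 0.05 made up 9.95% of all tested genes in this comparison, and calls of genes that fell made up 3.96%. In 7 of the 9 targets, all but Mdm2 and Zmat3, every KO library lay below every WT library, which was so for 28.6% of all tested genes. The p-values rest on the spread between biological duplicates pooled over the 4 groups.

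**Figure D2:**
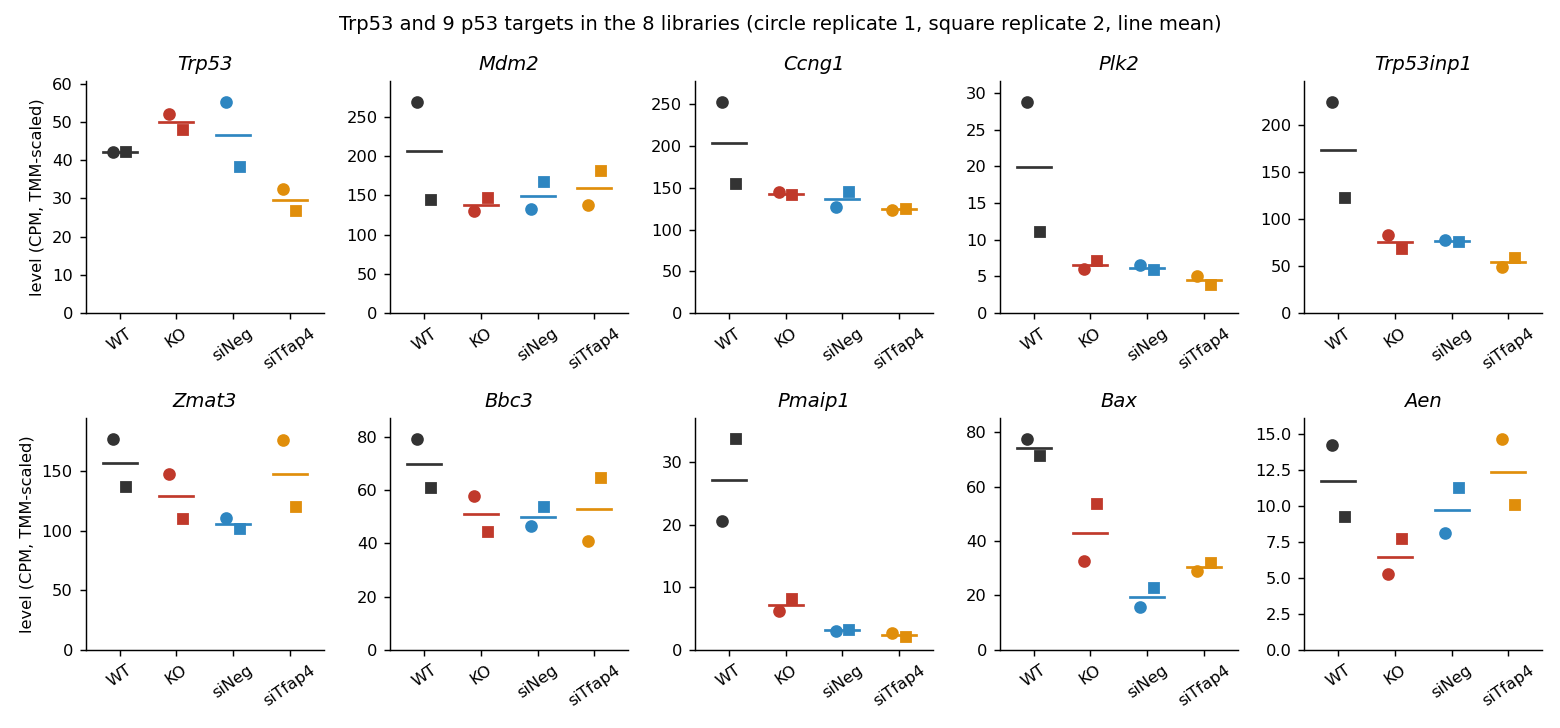
Level of each of the 10 genes (vertical axis, CPM from 0, separate scales) in the 4 groups (horizontal axis), with a circle for replicate 1, a square for replicate 2 and a line for the mean. Pmaip1 is at 20.6 and 33.7 CPM in WT and below 9 CPM in all other libraries, and the WT circle stands well above the WT square for Mdm2, Ccng1, Plk2 and Trp53inp1.

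Pmaip1 encodes NOXA, a BH3-only protein that neutralises the survival factor MCL1, and lies on chromosome 18 (ENSMUSG00000024521). It had 20.6 and 33.7 CPM in the WT libraries, 6.27 and 8.17 in those of KO, 2.999 and 3.19 under siNeg, and 2.68 and 2.01 under siTfap4. The WT libraries were the highest of the 8 and the siPOOL libraries the lowest, with no overlap between WT, KO and the siPOOL sets. The mean fell from 27.2 ± 9.25 CPM (SD, n = 2) in WT to 7.22 ± 1.34 in KO, a log2 fold change of -1.91 ± 0.33 (SE) with an adjusted p of 0.00143. The call held with each library left out, at log2 fold changes of -2.22 to -1.51 and adjusted p of 0.00139 to 0.0319.

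Plk2 encodes polo-like kinase 2, a serine/threonine kinase of the centrosome cycle that p53 induces (ENSMUSG00000021701, chr13:110395046-110400844, plus strand). It had 28.8 and 11.05 CPM in the WT libraries, 6.04 and 7.09 in those of KO, 6.60 and 5.81 under siNeg, and 5.10 and 3.89 under siTfap4. The KO libraries were below both WT libraries, but WT replicate 1 stood far above WT replicate 2. The mean fell from 19.9 ± 12.5 CPM (SD, n = 2) to 6.57 ± 0.74, a log2 fold change of -1.61 ± 0.39 (SE) with an adjusted p of 0.0150. Without WT replicate 1 the log2 fold change was -0.74 with an adjusted p of 0.341, and the call was also lost without KO replicate 1 (-1.49, adjusted p 0.120) and without KO replicate 2 (-1.72, adjusted p 0.0682). It held without WT replicate 2, at -2.13.

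Trp53inp1 encodes a nuclear protein that promotes p53 activity and autophagy (ENSMUSG00000028211, chr4:11156431-11174379, plus strand). It had 224 and 123 CPM in the WT libraries, 82.8 and 67.8 in those of KO, 77.5 and 75.98 under siNeg, and 49.2 and 58.9 under siTfap4. All 6 libraries that lack the cluster were below both WT libraries. The mean fell from 173 ± 71.9 CPM (SD, n = 2) to 75.3 ± 10.6, a log2 fold change of -1.20 ± 0.28 (SE) with an adjusted p of 0.0103. Without WT replicate 1 the log2 fold change was -0.69 with an adjusted p of 0.201, and the call was also lost without KO replicate 1 (-1.35, adjusted p 0.0514) and without KO replicate 2 (-1.06, adjusted p 0.133). It held without WT replicate 2, at -1.57.

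Mdm2, the feedback inhibitor of p53 (ENSMUSG00000020184, chr10:117688875-117710758, minus strand), had 269 and 144 CPM in WT and 129.98 and 146 in KO. The second WT library lay within the KO range, so the groups overlapped, and the log2 fold change of -0.58 ± 0.28 (SE) had an adjusted p of 0.223. With 1 library left out it ranged from -0.96 to -0.055, the latter without WT replicate 1. Ccng1 encodes cyclin G1, which works with a phosphatase on MDM2 (ENSMUSG00000020326, chr11:40748552-40755311, minus strand). It had 253 and 154 CPM in WT and 145 and 141 in KO, a log2 fold change of -0.51 ± 0.25 (SE) with an adjusted p of 0.231. It ranged from -0.82 to -0.10 with 1 library left out, the latter again without WT replicate 1. The groups did not overlap, but the second WT library was close to both KO libraries. Zmat3 encodes a zinc finger protein that binds RNA (ENSMUSG00000027663, chr3:32334792-32366014, minus strand). It had 177 and 137 CPM in WT and 148 and 110 in KO, overlapping ranges with a log2 fold change of -0.28 ± 0.25 (SE) and an adjusted p of 0.564. With 1 library left out it ranged from -0.51 to -0.077, the latter without WT replicate 1.

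Among the death genes other than Pmaip1, none passed the test between KO and WT. Bax encodes the effector that permeabilises the outer mitochondrial membrane (ENSMUSG00000003873, chr7:45461697-45466898, minus strand). It had 77.5 and 71.1 CPM in WT and 32.5 and 53.6 in KO, a log2 fold change of -0.79 ± 0.28 (SE) with an adjusted p of 0.0853. The WT duplicates were close to each other and the groups did not overlap. Leaving out WT replicate 1 gave a log2 fold change of -0.72. Leaving out the KO libraries moved it more, to -0.47 (adjusted p 0.600) for KO replicate 1 and to -1.19 (adjusted p 0.0744) for KO replicate 2. Bbc3 encodes PUMA, a BH3-only activator of apoptosis (ENSMUSG00000002083, chr7:16308393-16318205, plus strand). It had 79.3 and 60.7 CPM in WT and 57.9 and 44.2 in KO, a log2 fold change of -0.46 ± 0.27 (SE) with an adjusted p of 0.339. Aen encodes a nuclease that p53 induces in apoptosis (ENSMUSG00000030609, chr7:78895854-78911209, plus strand), and had 14.2 and 9.21 CPM in WT and 5.28 and 7.67 in KO, a log2 fold change of -0.87 ± 0.36 (SE) with an adjusted p of 0.145. Bbc3 and Aen did not overlap between the groups, but the nearest WT and KO libraries were close. With 1 library left out Bbc3 ranged from -0.66 to -0.24 and Aen from -1.15 to -0.50, the values nearest 0 being those without WT replicate 1.

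**Figure D3:**
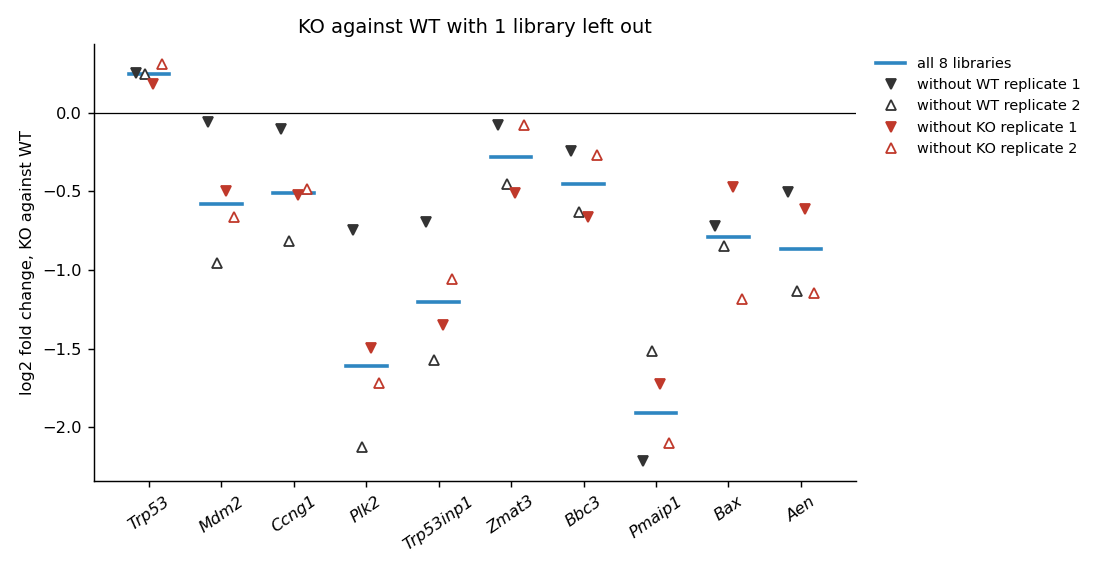
Log2 fold change of KO against WT (vertical axis) for each of the 10 genes (horizontal axis) with all 8 libraries (blue line) and with 1 library left out (triangles, by library). The filled black triangle, without WT replicate 1, is near 0 for Mdm2 and Ccng1 and at -0.74 for Plk2, while Pmaip1 stays below -1.5 in all 4 cases.

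Knockdown of Tfap4 in KO cells left none of the 10 genes past the test, where 2334 of all tested genes, 15.4%, were called. At an unadjusted p under 0.05 there were 2 of the 10, Trp53 and Bax, beside 4674 of all 15137 tested genes. DESeq2 and limma-voom also called none of the 10. The median log2 fold change of the 10 was -0.03, beside 0.01 over all tested genes. The gap between duplicates was widest in a siPOOL group for 3 of the 10 genes, Trp53 in siNeg and Zmat3 and Bbc3 in siTfap4, and in WT or KO for the other 7.

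Trp53 had 55.2 and 38.1 CPM in siNeg and 32.5 and 26.8 in siTfap4, which were the lowest of the 8 libraries. The groups did not overlap, and the log2 fold change of -0.66 ± 0.26 (SE) had an adjusted p of 0.0960. Without siNeg replicate 2 it passed the test (-0.91, adjusted p 0.0438), and without siNeg replicate 1 it was -0.38 (adjusted p 0.455). Bax had 15.9 and 22.7 CPM in siNeg and 29.0 and 32.0 in siTfap4, and its log2 fold change of 0.66 ± 0.29 (SE) had an adjusted p of 0.135. With correction for base composition (the GC share of the transcript's last bases) Bax was at 0.19 (adjusted p 0.692) and Trp53 at -0.40 (adjusted p 0.306).

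Mdm2 had 132 and 167 CPM in siNeg and 137 and 180 in siTfap4, and Bbc3 had 46.4 and 53.8 in siNeg and 40.9 and 64.6 in siTfap4. Both overlapped, with log2 fold changes of 0.09 and 0.08 whose sign turned when some single libraries were left out. With correction for base composition they were 0.54 (adjusted p 0.235) and 0.51 (adjusted p 0.225). Ccng1 had 127 and 145 CPM in siNeg and 123 and 125 in siTfap4, a log2 fold change of -0.14 (adjusted p 0.752). Its siTfap4 libraries lay just below the lower siNeg library, at a distance smaller than that between the siNeg duplicates.

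Plk2 and Trp53inp1, whose levels are given above, had log2 fold changes of -0.47 (adjusted p 0.528) and -0.51 (adjusted p 0.230) with Tfap4 knockdown. Pmaip1 had a log2 fold change of -0.41 ± 0.48 (SE), from 35 and 33 counts in siNeg to 21 and 17 in siTfap4. At such counts only a large change could have been detected. Zmat3 had 111 and 101 CPM in siNeg and 176 and 120 in siTfap4, a log2 fold change of 0.48 (adjusted p 0.214), and Aen had 8.14 and 11.2 CPM in siNeg and 14.7 and 10.03 in siTfap4, a log2 fold change of 0.35 (adjusted p 0.535). The Zmat3 groups did not overlap and the Aen groups did. Without siTfap4 replicate 1 Zmat3 was at 0.17 and Aen at 0.045.

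The correction for base composition moved all of these 10 values except that of Zmat3 by more than 1.5 times, while still calling none of the 10. It brought Plk2 to -0.17, Trp53inp1 to -0.27, Pmaip1 to -0.12 and Aen to -0.0035, turned Ccng1 to 0.15, and left Zmat3 at 0.62. The sizes of the differences with Tfap4 knockdown thus differed between the fits with and without it.

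The negative control group and untreated KO cells differ by transfection, by preparation and by sequencing set, and these cannot be told apart. The comparison shares its libraries with both others. None of the 10 genes passed the test with edgeR after the filter on low counts, which called 1 gene of all tested (0.00661%). DESeq2 called 1 of the 10, Bax, as did edgeR with no filter, and limma-voom called none. Over all tested genes DESeq2 also called more than edgeR, as counted in the last section. At an unadjusted p under 0.05 with edgeR there were 2 of the 10, Pmaip1 and Bax, beside 1737 of all 15137 tested genes. Pmaip1 and Bax were also the 2 of the 10 with both siNeg libraries below both KO libraries, which was so for 24.4% of all tested genes.

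Bax had 32.5 and 53.6 CPM in KO and 15.9 and 22.7 in siNeg. Its log2 fold change was -1.16 ± 0.29 (SE), with an adjusted p of 0.116 by edgeR and 0.0397 by DESeq2. By edgeR with no filter the adjusted p was under 0.05. Without KO replicate 2 the log2 fold change of Bax was -0.75. Pmaip1, at 6.27 and 8.17 CPM in KO and 2.999 and 3.19 in siNeg, had a log2 fold change of -1.22 ± 0.39 (SE) with an adjusted p of 0.222. Aen was on the other side, with both siNeg libraries above both KO libraries and a log2 fold change of 0.58 (adjusted p 0.574) that was 0.34 without KO replicate 1 or siNeg replicate 2, and the remaining 7 genes had log2 fold changes between -0.28 and 0.12.

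**Figure D4:**
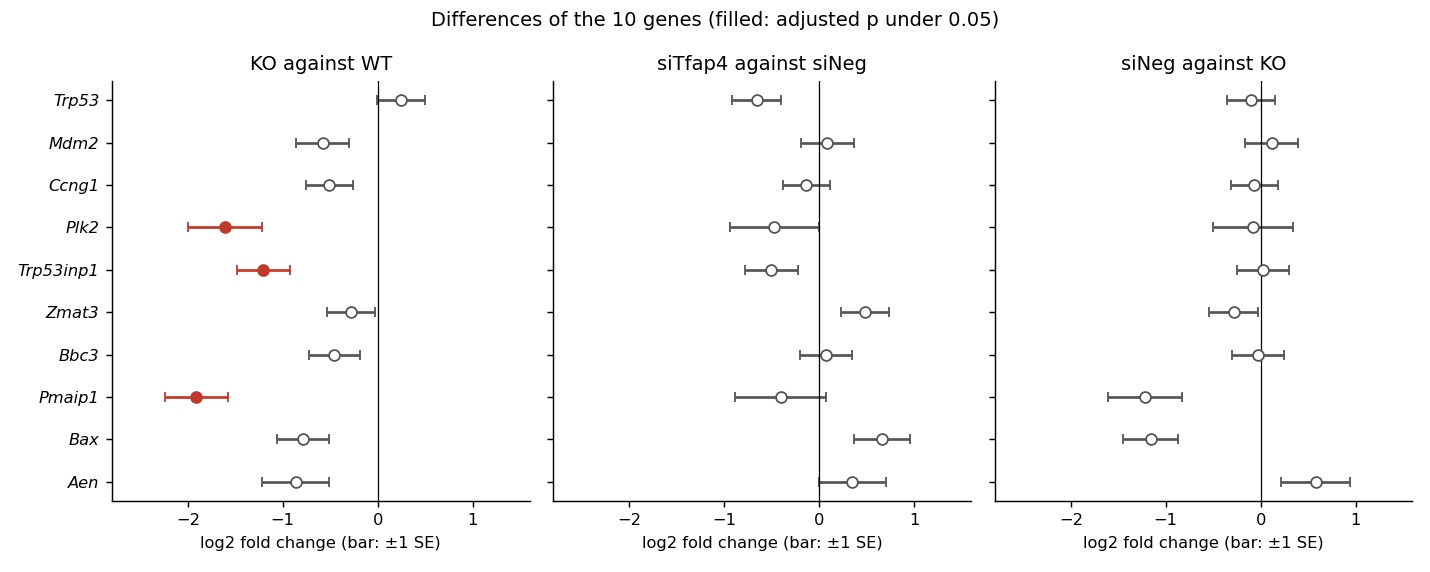
Log2 fold change (horizontal axis, bar ±1 SE) of the 10 genes in the 3 comparisons, which share libraries through siNeg and KO, filled where the adjusted p was under 0.05. Pmaip1, Plk2 and Trp53inp1 are filled in KO against WT at -1.91, -1.61 and -1.20, and no gene is filled in the others.

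The rest of the pathway was followed in 7 lists of 65 genes, of which 63 were tested. In KO against WT 7 rose and 2 fell, beside 5.99% and 3.96% of all tested genes. In siTfap4 against siNeg 6 rose and 7 fell, beside 4.36% and 11.1%. None was called in siNeg against KO by edgeR, where 5 had an unadjusted p under 0.05, beside 1737 of all 15137 tested genes. The 27 tested targets among them had a median log2 fold change of -0.33 in KO against WT, with 19 below 0, and of -0.27 with Tfap4 knockdown, with 16 below 0, beside 50.5% and 49.5% of all tested genes below 0. The second median is the same with Dram1, which had 13 counts in siNeg and 0 in siTfap4, at the bound of at least 3.15-fold lower that 3 counts over the group allow. Of the 27, 3 rose and 1 fell in KO, and 3 rose and 5 fell with Tfap4 knockdown.

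Regulators of p53 included 14 tested genes, of which 2 rose and 1 fell in KO. Cdkn2a, whose ARF product blocks MDM2, rose from 11.9 and 13.0 CPM in WT to 32.8 and 37.7 in KO (log2 fold change 1.504, adjusted p 0.0126). It fell with Tfap4 knockdown from 22.7 and 22.8 CPM to 3.31 and 11.4 (-1.61, adjusted p 0.0111), the only regulator called there outside the alternative fits. The counts are per gene, so they do not show whether the ARF transcript changed. Trp53bp1, a DNA break sensor, rose in KO (0.83, adjusted p 0.0328), and Chek2, a kinase that phosphorylates p53 after damage, fell (-0.96, adjusted p 0.0196). Trp53bp1 overlaps the exons of Tubgcp4 on the opposite strand at its end, so its reads may be shared, since the strand setting of the counting is not given. Each of these 4 calls was lost on leaving out at least 2 single libraries: for Trp53bp1 any of the 4, for Cdkn2a in KO any but KO replicate 1, for Chek2 any but WT replicate 1, and for Cdkn2a with knockdown siNeg replicate 1 or siTfap4 replicate 1. The log2 fold changes then ranged from 0.66 to 1.03 for Trp53bp1, 1.41 to 1.604 for Cdkn2a in KO, -1.06 to -0.84 for Chek2 and -2.79 to -1.003 for Cdkn2a with knockdown. With Tfap4 knockdown Atm was not called, at a log2 fold change of 0.77 (adjusted p 0.0523). It was called by DESeq2, with the filter of 10 CPM and with the replicate block. Chek1 (-0.49, adjusted p 0.202) was called there with correction for base composition. Trp63, a p53 relative, had at most 5 counts in a library and was not tested.

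Among 10 growth arrest and stress targets 2 rose and 1 fell in KO. Gdf15, a stress-induced secreted factor, rose from 17.6 and 25.0 CPM to 92.8 and 91.5 (log2 fold change 2.12, adjusted p 0.000146). Gadd45a, a stress and repair factor, rose from 58.0 and 38.9 CPM to 147 and 139 (1.56, adjusted p 0.00122). Btg2, an antiproliferative factor, fell from 61.8 and 48.1 CPM to 22.2 and 25.2 (-1.22, adjusted p 0.00589), though the call was lost on leaving out WT replicate 1, KO replicate 1 or KO replicate 2, at log2 fold changes of -1.38 to -1.01 with 1 library left out. Gdf15 and Gadd45a, in contrast to Plk2 and Trp53inp1, held with each library left out.

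With Tfap4 knockdown 2 of these 10 rose and 2 fell. Cdkn1a, which encodes the cell cycle inhibitor p21, rose from 160 and 141 CPM in siNeg to 290.0 and 319 in siTfap4 (log2 fold change 1.02, adjusted p 0.00760). Its call did not hold with correction for base composition. Gdf15 rose from 61.5 and 51.0 CPM to 130 and 92.9 (0.98, adjusted p 0.0181), lost on leaving out either siNeg library or siTfap4 replicate 1 (0.71 to 1.19). Gadd45a fell from 125 and 94.1 CPM to 24.7 and 31.3 (-1.97, adjusted p 0.000199). Gtse1, which exports p53 from the nucleus in G2, fell from 138 and 51.3 CPM to 3.57 and 5.54 (-4.37, adjusted p 0.000210). Between KO and WT, Cdkn1a had a log2 fold change of 0.52 with an adjusted p of 0.175.

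Death and autophagy targets numbered 8 tested of 9, since Fas, a death receptor, had at most 18 counts in a library. Ei24, an endoplasmic reticulum protein reported as a target of the cluster, rose in KO from 54.8 and 42.4 CPM to 79.0 and 93.5 (log2 fold change 0.83, adjusted p 0.0422). Its call was lost on leaving out any of the 4 libraries (0.66 to 1.03), with the filter of 10 CPM and with the replicate block. Apaf1, the scaffold of the apoptosome, fell with Tfap4 knockdown from 19.7 and 8.52 CPM to 4.59 and 3.30 (-1.85, adjusted p 0.00722). Tnfrsf10b, a TRAIL receptor whose end is 15.5% shared with other genes, fell from 36.4 and 34.8 CPM to 9.17 and 21.7 (-1.20, adjusted p 0.0222). Both calls were lost without siNeg replicate 1 or siTfap4 replicate 1, and that of Tnfrsf10b also without siNeg replicate 2. With 1 library left out Apaf1 ranged from -2.34 to -1.13 and Tnfrsf10b from -1.97 to -0.73.

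None of the 4 DNA repair targets was called in KO, where the most abundant, Polk and Xpc, had log2 fold changes of -0.23 and -0.37. With Tfap4 knockdown Ddb2, a sensor of ultraviolet damage, fell from 8.997 and 7.65 CPM to 2.29 and 2.12 (-1.91, adjusted p 0.00722), lost without siNeg replicate 1 or siTfap4 replicate 1 at nearly the same size (-2.04 to -1.80). Ddb2 overlaps Acp2 on the opposite strand at its end. None of the 5 metabolism targets was called in KO, where Tigar, which lowers glycolysis, and Ak1, an adenylate kinase, had log2 fold changes of 0.60 and 0.16. Tigar was called as higher in KO when the 4 libraries of the comparison were fitted alone. Dcxr, a sugar reductase, rose with Tfap4 knockdown from 6.94 and 12.8 CPM to 25.6 and 23.6 (1.33, adjusted p 0.0186), lost without siNeg replicate 1 or siTfap4 replicate 1 (0.93 to 1.81) and with correction for base composition.

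In the BCL2 family, to which Bax, Bbc3 and Pmaip1 belong, 1 of 12 other members rose in KO and none fell. Bad, a BH3-only protein, rose from 12.9 and 13.9 CPM to 28.4 and 28.2 (log2 fold change 1.08, adjusted p 0.0316). The call was lost on leaving out any of the 4 libraries while the size stayed at 1.04 to 1.13. Bok was not called, at a log2 fold change of -1.29 (adjusted p 0.0605) with groups that did not overlap. It was called as lower in KO without a filter, with the 4 libraries alone, and with replicate block and GC correction together. With Tfap4 knockdown 3 rose and 1 fell. Bid, a BH3-only protein cleaved by caspase 8, fell from 45.6 and 37.5 CPM to 5.61 and 10.3 (-2.38, adjusted p 0.000134) and held with each library left out, though its end overlaps Bcl2l13 on the opposite strand. Bad rose by a log2 fold change of 1.21 (adjusted p 0.0118), Bak1, the other effector beside Bax, by 1.03 (adjusted p 0.0204), and Bcl2l1, a survival factor, by 0.89 (adjusted p 0.0489). All 3 rises were lost without siNeg replicate 1 or siTfap4 replicate 1 and with correction for base composition, and ranged with 1 library left out from 0.78 to 1.75 for Bad, 0.75 to 1.24 for Bak1 and 0.53 to 1.16 for Bcl2l1. Those of Bak1 and Bcl2l1 were lost without siNeg replicate 2 as well, and that of Bcl2l1 also by limma-voom, without a filter, with the 4 libraries alone and with the replicate block.

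Of 10 caspases and their regulators, 1 rose in KO and none fell. Casp2, an initiator caspase reported as a target of the cluster, had 19.4 and 12.7 CPM in WT and 28.3 and 28.2 in KO. The groups did not overlap, and the log2 fold change was 0.81 (adjusted p 0.0737). It ranged from 0.54 to 1.16 with 1 library left out. With Tfap4 knockdown none was called by edgeR, and 1 had an unadjusted p under 0.05, beside 4674 of all 15137 tested genes. The most abundant, Birc5 and Xiap, both inhibitors of apoptosis, had log2 fold changes of -0.10 and -0.13.

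Between siNeg and KO the most abundant genes of the 7 lists also did not pass the test. Among regulators Usp7 and Mdm4 had log2 fold changes of 0.20 and 0.62, and the end of Mdm4 is 79.5% shared with other genes, so its counts are uncertain. Among targets Rps27l and Cdkn1a had -0.21 and 0.31, Polk and Xpc -0.17 and 0.27, and Siva1 and Ei24 0.43 and 0.41. Tigar and Ak1 had 0.12 and 0.77, Mcl1 and Bcl2l11 -0.18 and 0.14, and Birc5 and Xiap 0.08 and -0.05.

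**Figure D5:**
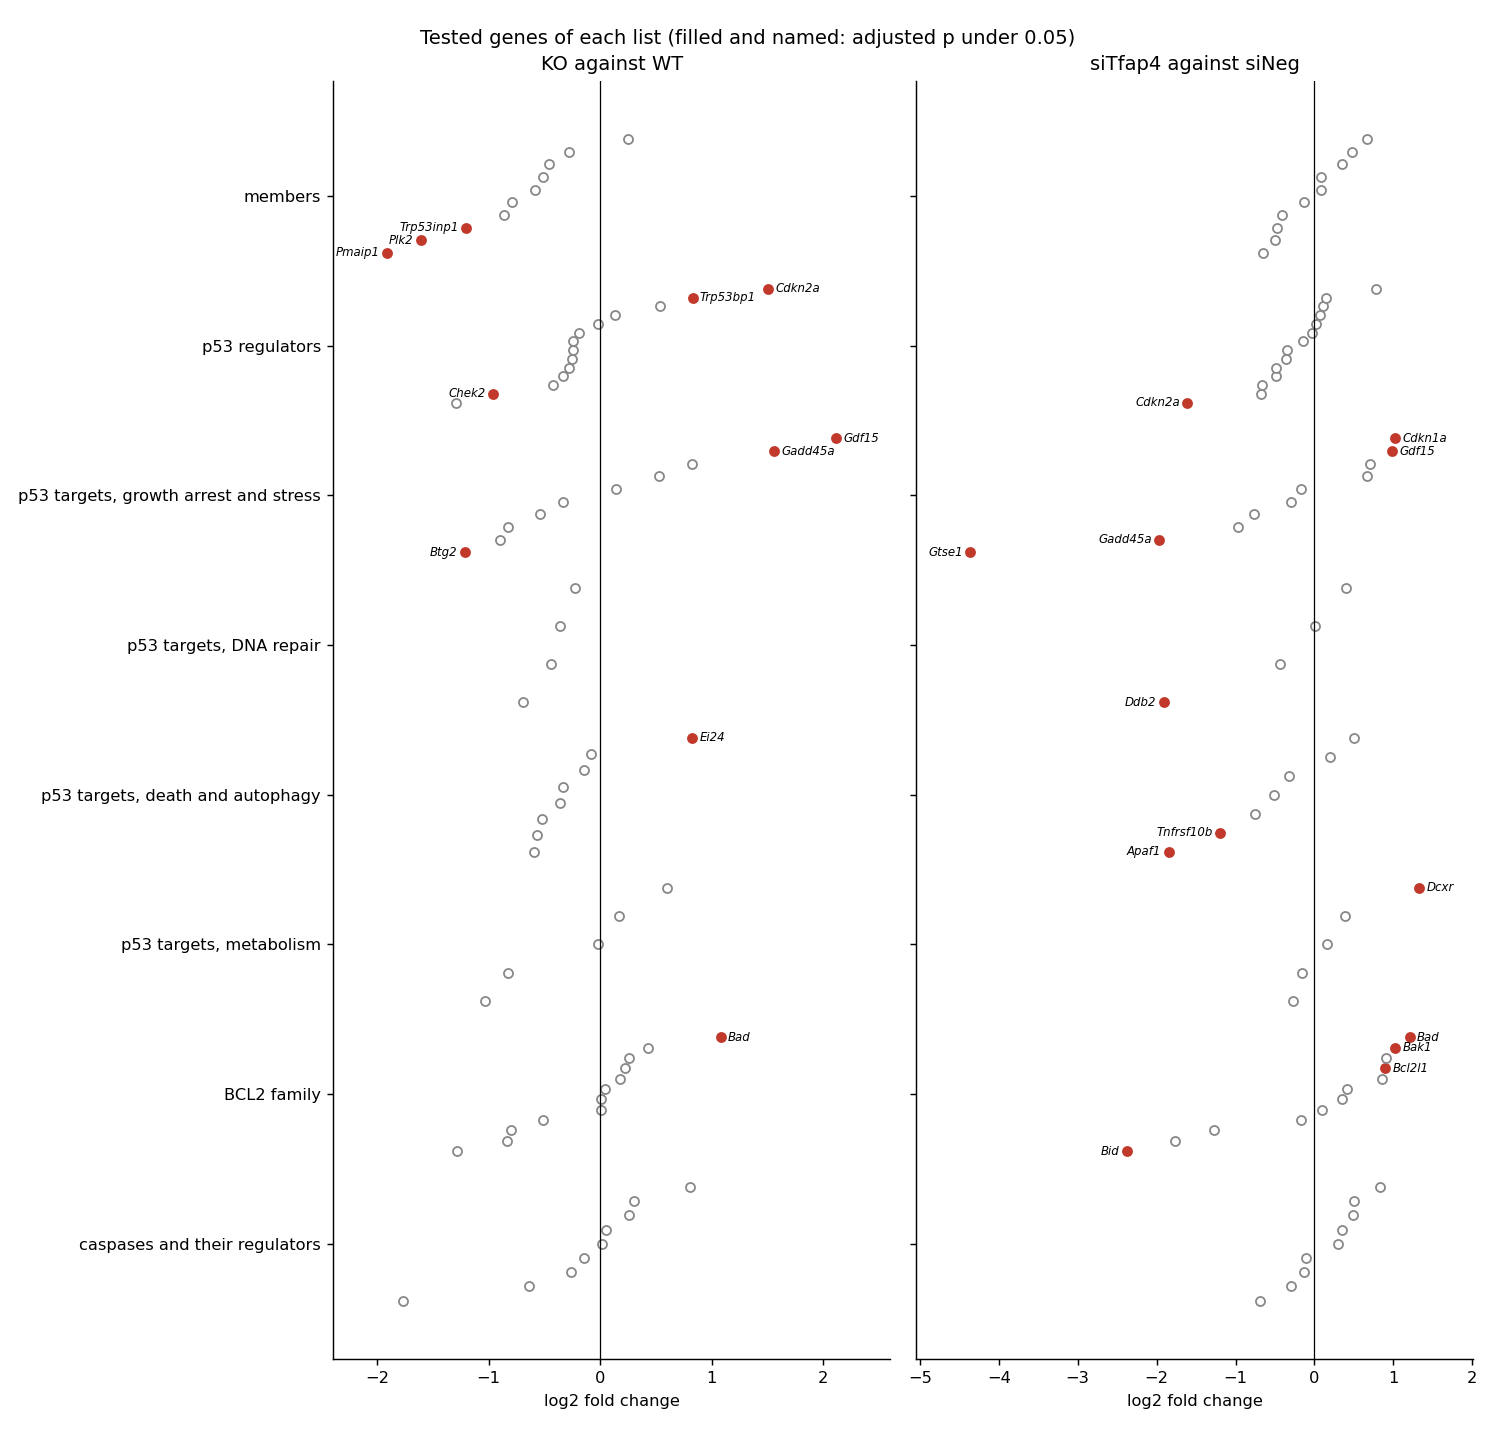
Log2 fold change (horizontal axis) of tested genes of the members and the 7 other lists in KO against WT (left) and siTfap4 against siNeg (right), filled and named where the adjusted p was under 0.05. Dram1, at 0 counts in both siTfap4 libraries, is not drawn on the right. The called members, at -1.91, -1.61 and -1.20 on the left, are all below 0, while the called genes of the other lists lie on both sides.

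Genes most like the members in pattern were those with the smallest root mean square difference of centred log2 CPM over the 8 libraries, among 8636 genes with a mean of at least 10 CPM. For Trp53 these were Twf1 (0.10), Atf6 (0.10) and Lrch2 (0.11). For Plk2 they were Trp53inp1 (0.28), Neurod1 (0.30) and Btg2 (0.32), and for Trp53inp1 they were Tcfl5 (0.19), Btg2 (0.25) and Znhit3 (0.25). For Pmaip1 they were Sox4 (0.24), B2m (0.37) and Gm2694 (0.42). Sox4 had 67.3 and 86.5 CPM in WT, 18.6 and 26.9 in KO and 7.45 to 11.3 in the siPOOL libraries, and so had the same order of groups as Pmaip1. The libraries are shared by all genes, and the patterns of the called members were read from the same values as their tests.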

How the data were processed

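The deposited table holds counts of reads per gene, used as the authors deposited them. The submitters' processing notes name Trim Galore, a read trimmer, and the build GRCm38; for the aligner, the counter, its strand setting and the annotation the sources used here give nothing. Symbols matched 55154 of 55421 identifiers. Tests used edgeR 4.0.16 (R 4.3.3): filterByExpr, TMM factors, robust quasi-likelihood fit of 4 group means over 8 libraries (4 residual degrees of freedom), two-sided, Benjamini-Hochberg over all 15137 tested genes, threshold 0.05. CPM were computed here. Each wider list is given by counts, by up to 4 called genes, or by the 2 most abundant where none was called; Casp2, Ei24 and Cdkn1a are always given. A gene of the last list that this rule selects is counted but neither described nor drawn here. Members and lists were chosen with earlier results of these data known. Alternatives were DESeq2 1.42.0, limma-voom (limma 3.58.1), 2 other filters, the 4 libraries of a comparison alone, a replicate block, correction for GC in the last 100 bases, and leaving out each library. Some genes of the wider lists that were not called passed under an alternative, and not all of these are named. No member shares its last 200 bases with another gene or overlaps one in its last kilobase.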

Additional observations from a re-analysis of the deposited data

How the results depend on the processing

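In KO against WT the same 3 members were called under all 8 alternatives that keep the libraries, and between 1 and 3 with 1 library left out, where Pmaip1 was always called. In siTfap4 against siNeg the count was 0 to 1 with 1 library left out, with Trp53 called without siNeg replicate 2. In siNeg against KO it was 1, Bax, with DESeq2 and with no filter (adjusted p 0.0481). The replicate numbers are not shown to pair the samples (correlation of deviations -0.061 for WT and KO and 0.126 for siNeg and siTfap4), and with the replicate block 3, 0 and 0 members were called. The lone library of a group left with 1 is assumed to vary like the other groups. The duplicates differ in their GC trend, most in siNeg (Spearman -0.31 across genes).

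Over all tested genes, KO against WT gave 806 calls with the filter of 10 CPM and 629 to 880 with 1 library left out. In siTfap4 against siNeg leaving out 1 library gave 522 to 2961 calls. In siNeg against KO there were 126 calls with DESeq2, 120 with no filter, 2 with 4 libraries, 0 with the replicate block, 15 with the GC correction, 30 with both, and 1 to 76 with 1 library left out.

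Signs turned for these log2 fold changes, none past the test, and the cause was not tested. With 1 library left out in siTfap4 against siNeg, Mdm2 ranged from -0.14 to 0.26 and Bbc3 from -0.31 to 0.36. In siNeg against KO, Trp53 ranged from -0.39 to 0.14, Mdm2 from -0.062 to 0.28, Ccng1 from -0.16 to 0.030, Plk2 from -0.19 to 0.040, Trp53inp1 from -0.11 to 0.18 and Bbc3 from -0.21 to 0.18. In siTfap4 against siNeg, Ccng1 was 0.15 and Aen -0.0035 with the GC correction, and 0.16 and -0.0071 with the replicate block as well. In siNeg against KO, Bbc3 was 0.0065 with the 4 libraries alone, 0.091 with the GC correction and 0.084 with the replicate block as well. No sign turned in KO against WT.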
